A study of Homo sapiens with 6 samples.

Results

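The genes described here are SRF, the transcription factor serum response factor, and 9 genes of the actin contractile apparatus known as its targets: TAGLN, ACTA2, MYL9, CNN1, CNN2, TPM1, TPM2, VCL and CALD1. They were taken by gene symbol from a table of 27852 genes, in which all 10 are listed, and 9 of them passed the filter on low counts together with 13221 genes in all. The samples are 6 RNA-seq libraries of H69AR, an established human small cell lung cancer (SCLC) line that was derived from H69 cells by culture in rising doses of adriamycin. The cells were transfected with a control siRNA (siCtrl, 3 libraries) or with 1 siRNA against the cytoplasmic DNA exonuclease TREX1 (siTREX1, 3 libraries), and RNA was taken on day 3. Whether the 3 libraries of each group were grown as separate cultures is not stated, and the p-values measure the spread of these 6 libraries alone, part or all of which may be technical.

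SRF binds DNA at a short AT-rich element flanked by C and G bases, the CArG box, and works with either of 2 families of partners. The MRTF proteins bind free actin monomers and enter the nucleus when monomers are taken up into filaments, whereas the ternary complex factors ELK1, ELK3 and ELK4 answer to MAP kinases. SRF with MRTF drives genes of the actin cytoskeleton and of smooth muscle contraction, and SRF with ternary complex factors drives immediate early genes. SRF is itself one of its own targets. No library had SRF removed, so the dependence of these genes on SRF in H69AR cells was not measured, and the name of the group rests on general knowledge.

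The promoter sequences are shown first, because the genes are grouped as targets of a factor that binds a known element. RefSeq windows on GRCh38.p14, from 250 bases before to 50 bases after each annotated start, were found for 8 of the 10 genes. None was found for TAGLN and MYL9, so their promoters were not searched. A full CArG box was present in windows of 2 of the 8 genes, SRF and CNN2, and in 454 of all 35116 windows (1.29%). The stretches below end before the start site, with full CArG boxes in capitals for SRF (chr6:43171119-43171268, plus strand) and CNN2 (chr19:1026478-1026577, plus strand), and with boxes that differ from the pattern by 1 base in capitals for ACTA2 (chr10:88952784-88952923, minus strand).
SRF: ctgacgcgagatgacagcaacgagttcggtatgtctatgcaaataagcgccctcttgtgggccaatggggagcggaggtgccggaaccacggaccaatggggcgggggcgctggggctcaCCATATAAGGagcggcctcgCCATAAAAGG
CNN2: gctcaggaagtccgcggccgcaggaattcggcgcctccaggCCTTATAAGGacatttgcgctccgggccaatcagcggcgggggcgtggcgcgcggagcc
ACTA2: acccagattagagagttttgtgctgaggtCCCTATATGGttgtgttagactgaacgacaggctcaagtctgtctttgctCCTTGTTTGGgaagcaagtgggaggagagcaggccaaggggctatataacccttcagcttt

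SRF had 2 boxes in a row, CCATATAAGG starting 30 bases and CCATAAAAGG starting 10 bases before its RefSeq start. The SRF transcript that the table lists starts 30 bases downstream of that RefSeq start. CNN2 had CCTTATAAGG 89 bases before its RefSeq start, and its listed transcript starts 27 bases upstream of that start. ACTA2 had CCCTATATGG at 121 and CCTTGTTTGG at 71 bases before its start, and a box with 1 base changed is common, in 17.9% of all windows. The TEAD motif, searched as GGAATG on either strand, lay in windows of ACTA2, VCL and CALD1 and in 14.03% of all windows. The TPM1 window stands 5804 bases downstream of the start of the TPM1 transcript that the table lists, so it is not the promoter of the transcript measured. A match is a description of the letters, and the map of motif positions shows all of them.

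**Figure D1:**
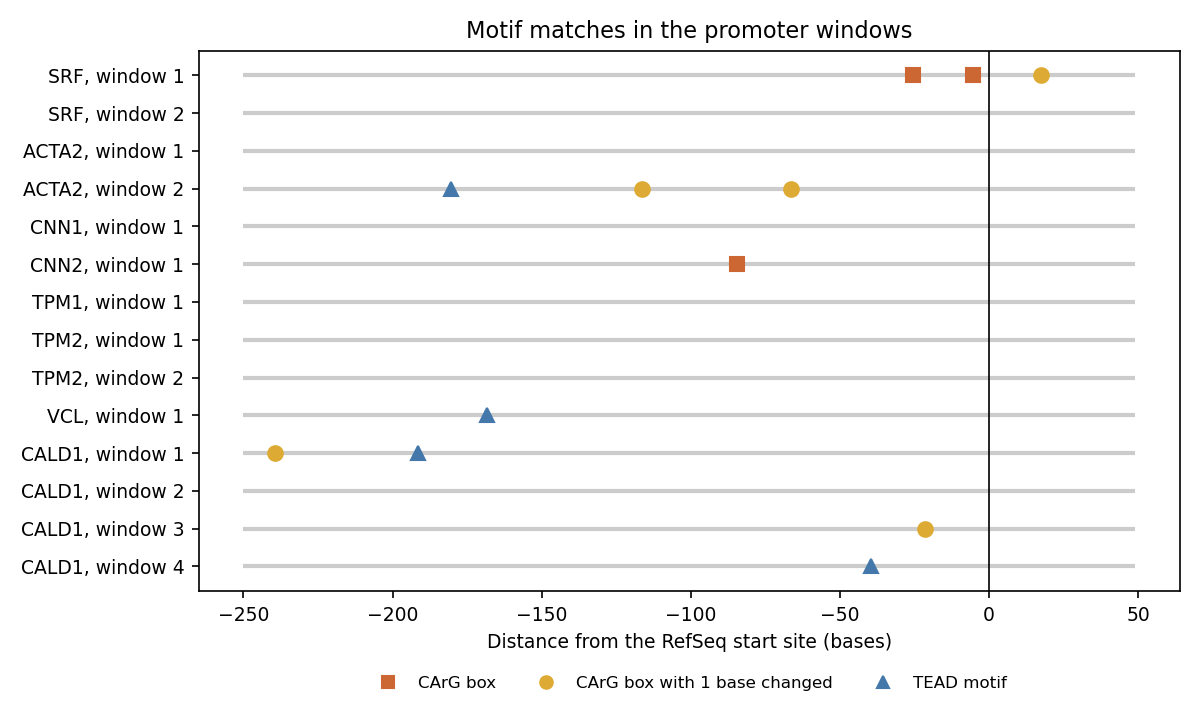
Positions of CArG boxes (squares), CArG boxes with 1 base changed (circles) and TEAD motifs (triangles) in the RefSeq promoter windows of 8 genes, by distance in bases from the RefSeq start site. The full boxes of SRF lie next to its RefSeq start, and that of CNN2 lies 89 bases before its own. The windows of CNN1, TPM1 and TPM2 hold none of the 3 motifs.

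TAGLN, TPM1 and SRF stood higher in every library labelled siTREX1 than in any siCtrl library. The other 6 measurable genes had overlapping groups. Over all 13221 tested genes, 25.3% were higher and 25.2% lower without overlap between the groups. ACTA2, the gene that did not pass the filter, had at most 14 estimated counts in a library. The set was chosen by gene name with the differences in level between these same siCtrl and siTREX1 libraries in view, under no stated threshold. Its differences are therefore given as a description, and nothing is read from a test of them.

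Levels are given as CPM, the authors' estimated counts scaled to library size with edgeR's TMM normalization factors. They do not depend on transcript length and can therefore be compared between genes. Each library held between 16329106 and 22482687 estimated counts for named genes. TREX1 itself was not clearly lower in the libraries labelled siTREX1. It stood at 22.7, 31.5 and 24.7 CPM in the 3 siCtrl libraries and at 28.4, 16.03 and 18.2 CPM in siTREX1 replicates 1, 2 and 3. Its log2 fold change was -0.33 with a standard error of 0.24 (adjusted p = 0.349 in edgeR's quasi-likelihood test) and became -0.62 (adjusted p = 0.0499) without siTREX1 replicate 1. The value is that of 1 listed TREX1 transcript of 629 nt. By this transcript siTREX1 replicate 1 lay within the siCtrl range and did not show a lower TREX1 level. All directions given below rest on the labels.

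In siCtrl cells the level ranged from CNN2 (133.9 ± 0.737 CPM, SD, n = 3) and VCL (127 ± 1.63) through TPM1 (101 ± 4.06), SRF (59.7 ± 0.460), CALD1 (59.4 ± 1.52), MYL9 (35.4 ± 0.527), TAGLN (12.9 ± 1.03), TPM2 (7.97 ± 0.697) and CNN1 (7.01 ± 0.631) to ACTA2 (0.0784 ± 0.136). Neighbours in this order had ranges apart, except SRF and CALD1 and also TPM2 and CNN1. In the libraries labelled siTREX1 the order changed at the top, where TPM1 (172 ± 2.89 CPM) stood above CNN2 (131 ± 3.68) and VCL (130.0 ± 1.66), which overlapped each other. SRF (90.7 ± 0.280) then stood clear of CALD1 (60.3 ± 6.37), and CNN1 (8.23 ± 1.54) overlapped TPM2 (7.09 ± 1.62). The 10 genes together summed to 544 ± 1.63 CPM with siCtrl and to 661 ± 9.61 CPM in the libraries labelled siTREX1.

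**Figure D2:**
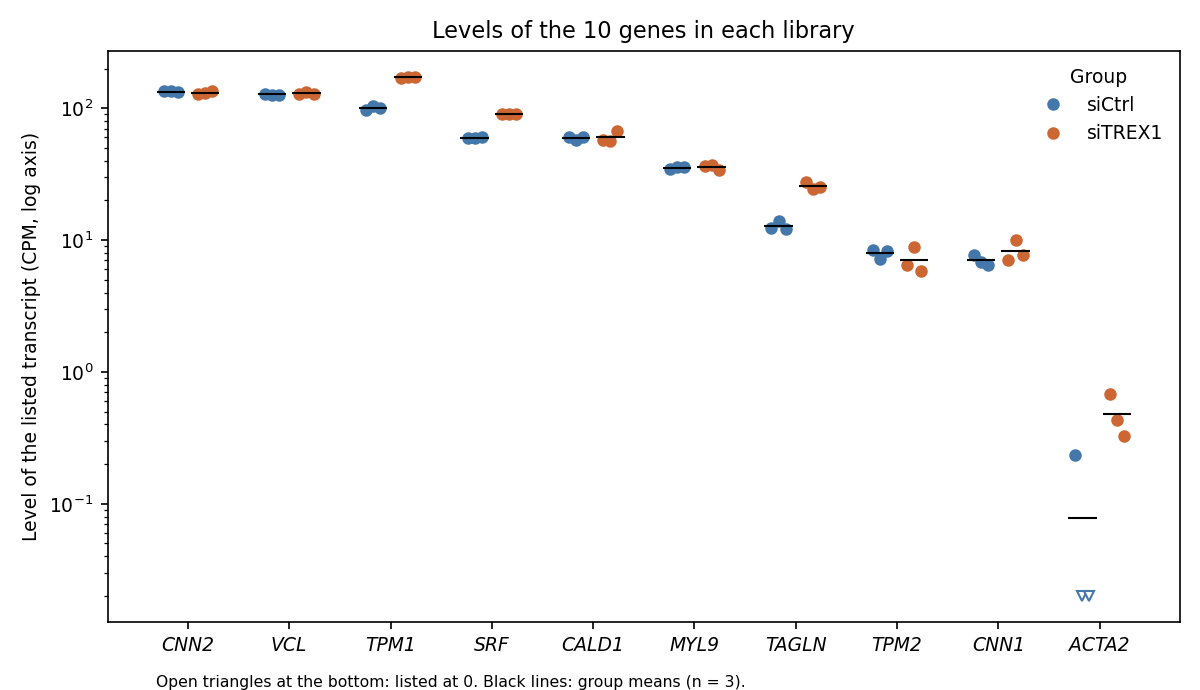
Level of the listed transcript in CPM (log axis) of the 10 genes in each of 6 libraries, 3 siCtrl and 3 labelled siTREX1, with black lines at the group means and open triangles where a library lists 0. TPM1, SRF and TAGLN sit higher in all 3 libraries labelled siTREX1, the other well-measured genes lie side by side, and ACTA2 is below 1 CPM in every library.

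SRF is encoded on chromosome 6 of GRCh38 from 43171299 to 43181507 on the plus strand, with 7 exons, and GENCODE 29 gives it a single transcript of 508 codons. In GENCODE 29 its listed transcript shares no 31-base word with another transcript. Whether this also holds in the annotation behind the deposited counts is not known, since that annotation was not given. It stood at 59.9, 59.2 and 60.1 CPM in the siCtrl libraries and at 90.4, 90.8 and 90.9 CPM in those labelled siTREX1. The spread within each group was under 1 CPM, and the groups did not overlap. The log2 fold change was 0.60 (standard error 0.03), or 1.52-fold, and 1084 of the tested genes had a larger one.

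TAGLN encodes transgelin (SM22-alpha), a small calponin-related protein that binds and bundles actin filaments and is widely used as a marker of smooth muscle and of activated fibroblasts. Its levels were 12.4, 14.03 and 12.1 CPM with siCtrl and 27.8, 24.4 and 25.3 CPM in the libraries labelled siTREX1. Every one of the latter was at least 10 CPM above the highest siCtrl library. The log2 fold change was 1.01 (standard error 0.09), or 2.01-fold, the largest among the 9 measurable genes, and 375 tested genes had a larger one. The listed transcript, TAGLN-202 (chromosome 11, 117199321 to 117204557, 201 codons), is 1 of 8, and 10.1% of its 31-base words are found in no other transcript. PCSK7 overlaps it on the opposite strand, and the library kit keeps strand.

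Tropomyosins lie along the actin filament and control the access of myosin and other proteins to it. TPM1 stood at 96.7, 104.8 and 101 CPM with siCtrl and at 168, 173 and 173 CPM in the libraries labelled siTREX1, with no overlap. Its log2 fold change was 0.77 (standard error 0.04), or 1.70-fold. TPM2 stood at 8.43, 7.17 and 8.32 CPM with siCtrl and at 6.48, 8.92 and 5.86 CPM in the others. Replicate 2 labelled siTREX1 was above all siCtrl libraries and the other two were below them. Its log2 fold change was -0.17 (standard error 0.18), running from -0.37 without siTREX1 replicate 2 to -0.05 without siTREX1 replicate 3. The difference seen for TPM1 was therefore not shared by TPM2 at the precision these libraries give.

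The TPM1 value is that of 1 transcript, TPM1-206 (chromosome 15, 63042685 to 63071889, 9 exons, 284 codons), of 34 in GENCODE 29. All of its 31-base words occur in other TPM1 transcripts, and 0.593% also occur in another gene, the largest partner being TPM2. A change of splicing and a change of the whole gene cannot be told apart for TPM1 in these values. The same holds for TPM2-201, which has no word of its own either.

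ACTA2 encodes smooth muscle alpha-actin, a filament-forming actin of contractile cells and myofibroblasts. It had estimated counts of 5, 0 and 0 with siCtrl and of 14, 8 and 5 in the libraries labelled siTREX1, or 0.235, 0 and 0 against 0.682, 0.430 and 0.326 CPM. The lowest library labelled siTREX1 was just above the highest siCtrl library. ACTA2 did not pass the filter and is given no fold change. ACTA2 lies on chromosome 10 from 88935074 to 88991339 on the minus strand, where ACTA2-AS1, FAS and STAMBPL1 overlap it on the other strand.

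Calponins bind actin and tropomyosin and slow the myosin motor. CNN1, the form typical of smooth muscle, stood at 7.71, 6.84 and 6.48 CPM with siCtrl and at 7.01, 9.96 and 7.73 CPM in the libraries labelled siTREX1. The groups overlapped, and replicate 2 labelled siTREX1 was the highest library. The log2 fold change was 0.23 (standard error 0.16), and it was 0.07 without that library. CNN2, the widely expressed form, stood at 134, 135 and 133 CPM with siCtrl and at 127, 131 and 135 CPM in the others (log2 fold change -0.03, standard error 0.03). With a trend of GC content removed from each library it was 0.14, so its sign was not fixed. Of the 31-base words of the listed CNN2 transcript, 11.96% occur in other genes, of which the pseudogene CNN2P9 shares the most.

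Caldesmon, encoded by CALD1, also binds actin and tropomyosin and holds back myosin. Its levels were 60.3, 57.6 and 60.1 CPM with siCtrl and 57.2, 56.1 and 67.6 CPM in the libraries labelled siTREX1. Only replicate 3 of the latter stood above the siCtrl range. The log2 fold change of 0.02 (standard error 0.08) became -0.07 without that library. The listed transcript, CALD1-202 on chromosome 7, has 538 codons against 793 in the longest CALD1 transcript, the length of the heavy form made by smooth muscle, and all its 31-base words are shared with other CALD1 transcripts.

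MYL9 encodes a regulatory light chain of myosin II, whose phosphorylation switches the motor on. It stood at 34.8, 35.5 and 35.8 CPM with siCtrl and at 36.5, 37.4 and 34.2 CPM in the libraries labelled siTREX1. The groups overlapped. Its log2 fold change was 0.03 (standard error 0.05), and removal of the GC trend moved it to 0.22. VCL encodes vinculin, which ties actin filaments to talin at adhesions. It stood at 129, 126 and 126 CPM with siCtrl and at 129, 132 and 129 CPM in the others. Its log2 fold change of 0.03 (standard error 0.03) was the narrowest estimate among these genes. The listed vinculin transcript has 1066 codons and is not the longer muscle form, metavinculin, of 1134 codons.

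**Figure D3:**
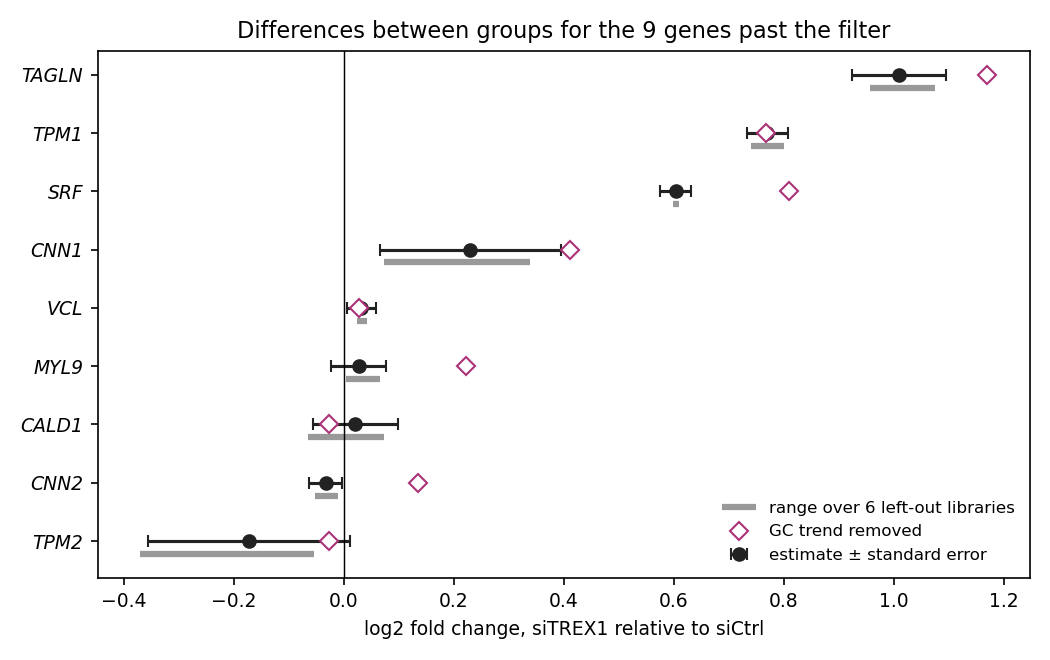
Log2 fold change (labelled siTREX1 over siCtrl) for the 9 genes past the filter (points, with bars of 1 standard error), the range over 6 fits that each left out 1 library (grey), and the value with the GC trend removed (diamonds). TAGLN, TPM1 and SRF stay at 0.598 or above in every fit drawn, and the other 6 lie between -0.37 and 0.41.

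By edgeR's adjusted p under 0.05, 3 of the 9 measurable genes counted as higher, 0 as lower and 6 as neither. Among all 13221 tested genes 33.3% were called, 17.8% higher and 15.5% lower, and 25.3% were higher and 25.2% lower without overlap between the groups. Since the genes were chosen with this comparison in view, nothing is read from their count. The count of 0 lower genes was also 0 at an unadjusted p under 0.05 in edgeR, and 0 in DESeq2 and in limma-voom. For the same reason nothing is read from these counts either. The median log2 fold change of the 9 genes was 0.03, beside -0.02 over all tested genes. With the GC trend removed the median of the 9 was 0.22, which was the log2 fold change of MYL9. In siTREX1 replicate 1 the listed TREX1 transcript lay within the siCtrl range. Without that library the log2 fold changes were 0.61 for SRF, 0.96 for TAGLN and 0.79 for TPM1. The differences in SRF, TAGLN and TPM1 were thus as large or nearly as large without it.

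Most proteins of this set have close relatives. By 1 listed transcript per gene, the relatives carried most of each level summed below, which may not hold for whole genes. TPM1 made up 8.73% ± 0.262 (SD, n = 3) of the summed tropomyosin level with siCtrl and 12.4% ± 0.0980 in the libraries labelled siTREX1. The sum itself went from 1154 ± 29.9 to 1388 ± 26.8 CPM, in which TPM4 rose from 851, 859 and 843 CPM to 966, 988 and 998 CPM (log2 fold change 0.21, standard error 0.02, adjusted p = 0.000965 in edgeR). TPM3, named only to complete the family, went from 195 to 226 CPM on average with overlapping groups (adjusted p = 0.0973 in edgeR). Of the sum of TAGLN and TAGLN2 alone, TAGLN took 0.981% ± 0.0741 with siCtrl and 1.82% ± 0.134 in the others. TAGLN2, a form of non-muscle cells, rose from 1286, 1304 and 1302 CPM to 1385, 1410 and 1384 CPM (log2 fold change 0.10, standard error 0.02, adjusted p = 0.00661 in edgeR).

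CNN2 made up 27.9% ± 0.794 of the calponin level with siCtrl and 23.6% ± 0.412 in the libraries labelled siTREX1, a lower share at an overlapping level of its own. CNN3, again named to complete the family, rose from 339 to 417 CPM on average (adjusted p = 0.00347 in edgeR). CNN1 held 1.46% ± 0.0910 and 1.48% ± 0.250. MYL9 held 4.06% ± 0.0340 of the sum of MYL9, MYL12A and MYL12B with siCtrl and 3.86% ± 0.144 in the others. By their listed transcripts, TAGLN, CNN1 and MYL9 were therefore minor parts of the sums taken here in both groups.

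**Figure D4:**
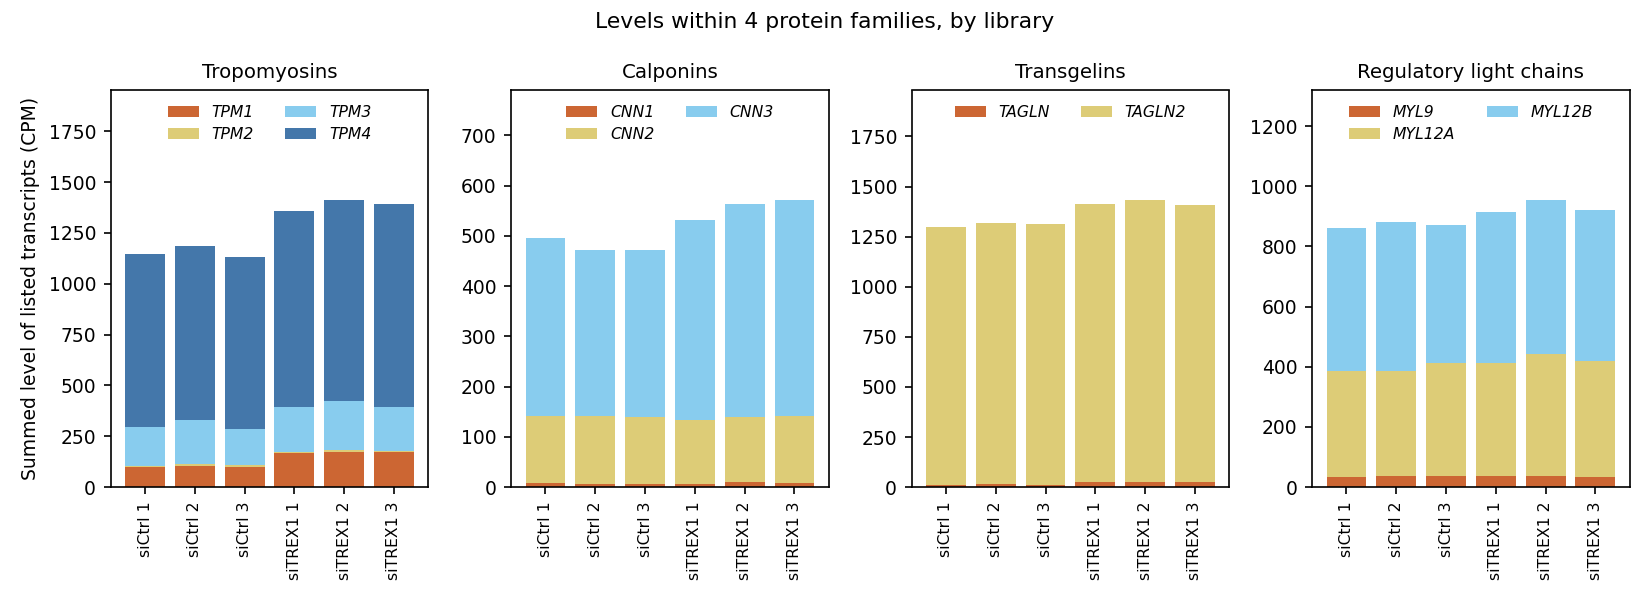
Summed CPM of the listed transcripts in 4 protein families, stacked by gene, for each of 6 libraries. TPM4, CNN3, TAGLN2 and the pair MYL12A and MYL12B make up most of each bar, and the TPM1 layer is thicker in the 3 libraries labelled siTREX1.

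The genes whose profile over the 6 libraries was most like that of TAGLN or SRF were sought among 9880 genes at 5 CPM or more on average, as the root mean square difference of log2 CPM from each gene's own mean. For TAGLN these were IL7R (0.049), DNAJB12 (0.050), RBM12 (0.052), CSRP1 (0.065) and SF1 (0.066). CSRP1 encodes a LIM protein of the actin cytoskeleton that is itself known as an SRF target, and it went from 22.4, 22.3 and 20.1 CPM to 45.2, 41.8 and 39.9 CPM. TPM1 stood at place 82 from TAGLN (0.133) and SRF at place 318 (0.210). For SRF the nearest were SMG5 (0.015), SMG8 (0.019), EIF1 (0.019), KCTD5 (0.021) and UBE2Q1 (0.022), with TPM1 at place 411. These profiles are dominated by the difference between the groups, and many genes shared it.

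The partners of SRF had calls in both directions. This list and those below were chosen with earlier results of these data known, so their counts are a description. Of 10 genes among the partners 8 were tested, and 2 rose, 1 fell and 5 did not pass the test. Over all tested genes 17.8% were higher and 15.5% lower, so these counts were near that share. The median log2 fold change of the 8 was 0.10. MRTFA, the main actin-controlled cofactor, stood at 18.9, 19.0 and 17.9 CPM with siCtrl and at 17.3, 17.8 and 19.3 CPM in the libraries labelled siTREX1 (log2 fold change -0.04, standard error 0.07, adjusted p = 0.730 in edgeR). MRTFB stood at 12.4, 12.4 and 12.3 CPM and at 12.7, 13.9 and 12.5 CPM (log2 fold change 0.08, standard error 0.08, adjusted p = 0.475 in edgeR). MYOCD, the smooth and cardiac muscle cofactor, was listed at 0 in all 6 libraries, and ABRA did not exceed 0.195 CPM.

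The ternary complex factors went different ways. ELK3, which can repress SRF targets, fell from 17.8, 17.9 and 16.6 CPM to 9.85, 11.4 and 10.9 CPM (log2 fold change -0.70, standard error 0.08, adjusted p = 0.00182 in edgeR). ELK4 rose from 9.48, 9.53 and 10.4 CPM to 13.4, 12.6 and 14.3 CPM (log2 fold change 0.45, standard error 0.09, adjusted p = 0.0108 in edgeR). ELK1 stood at 66.3, 64.0 and 59.1 CPM and at 74.1, 67.2 and 64.2 CPM (log2 fold change 0.12, adjusted p = 0.246 in edgeR), and with the GC trend removed it was called higher (0.33, adjusted p = 0.00794). The transcript listed for ELK1 is only 736 nt long, so these values may not stand for the whole gene.

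HOPX, a small protein that can hold SRF off DNA, rose from 4.11, 3.73 and 3.39 CPM to 5.67, 5.72 and 6.49 CPM (log2 fold change 0.66, standard error 0.15, adjusted p = 0.0169 in edgeR). This call was lost without siCtrl replicate 2 (adjusted p = 0.0519) or siCtrl replicate 3 (0.0575), and the transcript listed for HOPX is a retained intron. FHL2, a LIM protein that binds SRF, had log2 fold change 0.20 (adjusted p = 0.467 in edgeR), and SCAI, an inhibitor of MRTF, had -0.05 (adjusted p = 0.858). FHL2 spread from 17.7 to 30.5 CPM among the libraries labelled siTREX1, around the siCtrl range of 21.0 to 21.4 CPM.

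Beyond the 10 genes, 45 others known as targets of SRF with MRTF or of the related YAP and TEAD pathway were looked at. Of 39 tested, 13 rose, 3 fell and 23 did not pass the test, against 17.8% higher and 15.5% lower over all genes, and the median log2 fold change was 0.12. Only 1 gene was lower without siCtrl replicate 1, siCtrl replicate 2, siTREX1 replicate 2 or siTREX1 replicate 3. The largest rises were in secreted matricellular proteins. CCN2 (CTGF) went from 0.705, 0.626 and 0.864 CPM to 5.87, 5.70 and 4.61 CPM (log2 fold change 2.86, standard error 0.24, adjusted p = 0.000584 in edgeR). CCN1 (CYR61) went from 66.0, 69.1 and 68.6 CPM to 253, 248 and 241 CPM (log2 fold change 1.86, standard error 0.03, adjusted p = 1.38e-05 in edgeR). THBS1, encoding thrombospondin 1, went from 28.5, 28.9 and 30.0 CPM to 95.7, 92.6 and 96.9 CPM (log2 fold change 1.71, standard error 0.04, adjusted p = 1.84e-05 in edgeR).

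Those 3 genes encode secreted proteins and not parts of the contractile apparatus. Of the cytoskeletal genes on the list, ZYX, encoding the adhesion protein zyxin, went from 124, 131 and 132 CPM to 200, 190 and 189 CPM (log2 fold change 0.58, standard error 0.04, adjusted p = 0.000248 in edgeR). CSRP1, with the values above, had log2 fold change 0.97 (standard error 0.07, adjusted p = 0.000403 in edgeR). CFL1, encoding the filament-severing protein cofilin, had 0.15 (adjusted p = 0.0256 in edgeR), and its adjusted p was 0.0579 to 0.0817 without siCtrl replicate 1, siCtrl replicate 2, siTREX1 replicate 2 or siTREX1 replicate 3. The listed transcript of ACTG1, a cytoplasmic actin, is only 471 nt long, so its value may not stand for the ACTG1 mRNA. It stood at 1442 to 1594 CPM over all libraries (log2 fold change 0.03, adjusted p = 0.571 in edgeR), and it was called higher with the GC trend removed (0.30, adjusted p = 0.00218).

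The transcript listed for ACTB, the other cytoplasmic actin, is a processed transcript of 561 nt and does not measure its mRNA. MYLK, GSN and ITGA1, which are on the same list, were listed at 0 in every library, and for genes as widely used as these a listed 0 may be a failed estimate of 1 transcript.

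Immediate early SRF targets moved upwards in the larger part. Of 11 tested of 14, 8 rose, 0 fell and 3 did not pass the test, against 17.8% higher and 15.5% lower over all genes. The median log2 fold change was 0.76. The count of 0 lower genes was 0 at an unadjusted p under 0.05 in edgeR and also 0 in DESeq2 and limma-voom. MCL1, an inhibitor of apoptosis, rose from 119, 119 and 117 CPM to 197, 200.3 and 204 CPM (log2 fold change 0.76, standard error 0.03, adjusted p = 4.91e-05 in edgeR). FOSL1, an AP-1 subunit, rose from 25.2, 22.96 and 20.3 CPM to 39.9, 42.3 and 39.4 CPM (log2 fold change 0.83, standard error 0.09, adjusted p = 0.0012 in edgeR).

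The nuclear receptor NR4A1 rose from 7.90, 8.59 and 10.8 CPM to 16.7, 18.8 and 15.9 CPM (log2 fold change 0.91, standard error 0.14, adjusted p = 0.00456 in edgeR). JUNB, another AP-1 subunit, had log2 fold change 0.34 (standard error 0.04, adjusted p = 0.00226 in edgeR), and EGR1, a zinc finger factor, had 0.38 (standard error 0.07, adjusted p = 0.00742). CCN1 is counted on this list too. Several of these genes also answer to NF-kB or to MAP kinases without SRF, so the list is not specific to SRF.

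**Figure D5:**
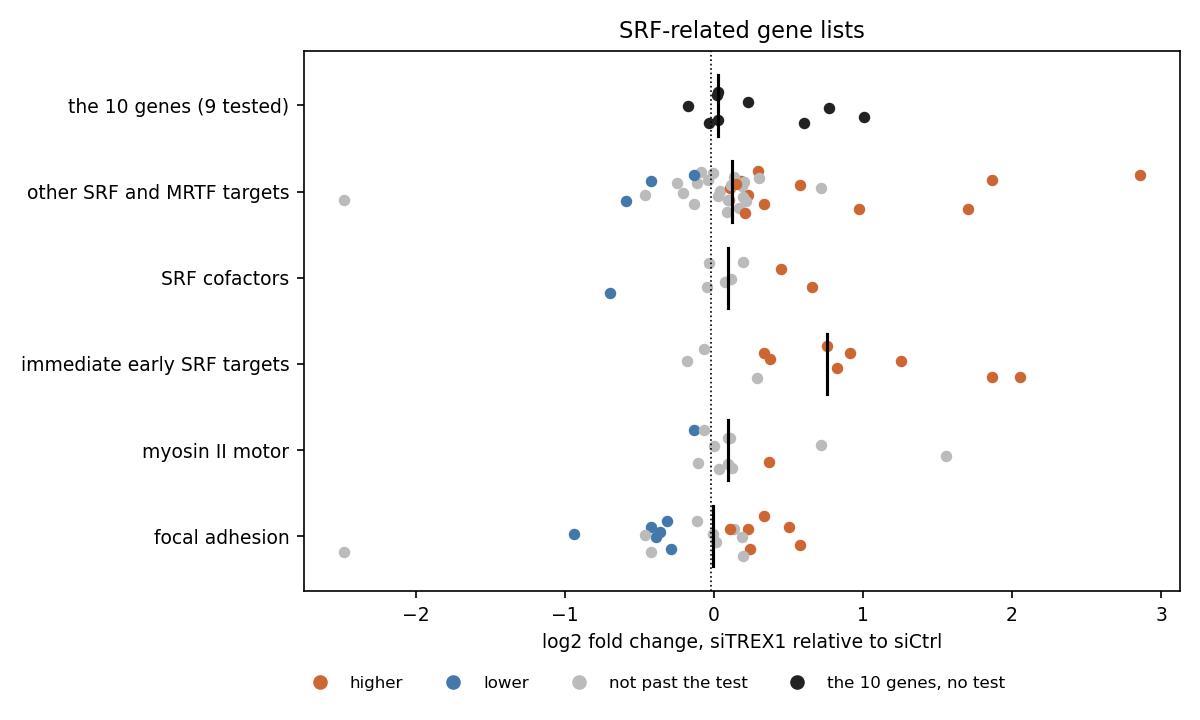
Log2 fold change of each tested gene in the set and in 5 related lists, orange where higher and blue where lower at an adjusted p under 0.05 in edgeR, grey where not past the test, and black without a test for the chosen genes. Thick lines mark list medians and the dotted line the median of all tested genes, and the immediate early list has the median farthest from 0 (0.76).

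The myosin II motor, whose light chain MYL9 is one of the 10 genes, gave little that held. Of 12 tested, 1 rose, 1 fell and 10 did not pass the test, against 17.8% higher and 15.5% lower over all genes. The median log2 fold change was 0.09. DAPK3, a kinase of light chains, had log2 fold change 0.37 (standard error 0.09, adjusted p = 0.0263 in edgeR), which was lost (0.0673 to 0.0788) without siCtrl replicate 1, siCtrl replicate 3, siTREX1 replicate 1 or siTREX1 replicate 3. MYH10, a non-muscle heavy chain, had -0.13 (standard error 0.03, adjusted p = 0.0266 in edgeR), which was lost when any 1 of the 6 libraries was left out (0.0521 to 0.0863).

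The other non-muscle heavy chain, MYH9, had log2 fold change 0.09 (adjusted p = 0.0749 in edgeR, and 0.0419 without siTREX1 replicate 3), and the regulatory light chain MYL12B also had 0.09 (adjusted p = 0.0528, and 0.0259 without siCtrl replicate 2). MYL6, the essential light chain, had 0.00 (adjusted p = 0.999). The transcript listed for PPP1R12B, a gene of a myosin phosphatase subunit, is a nonsense-mediated decay form of 380 nt and does not measure the subunit's mRNA. It went from 1.66, 0.754 and 3.99 CPM to 5.63, 6.95 and 6.35 CPM, a log2 fold change of 1.55 (adjusted p = 0.0759 in edgeR) that was 2.37 (adjusted p = 0.0140) without siCtrl replicate 3. PPP1CB, the catalytic subunit of the phosphatase, had 0.12 (adjusted p = 0.0821). PPP1R14B, an inhibitor of that phosphatase, had -0.11 (adjusted p = 0.237) and turned to 0.27 (adjusted p = 0.000891) with the GC trend removed.

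At focal adhesions, where vinculin acts, 6 of 21 tested genes rose, 6 fell and 9 did not pass the test. The shares over all tested genes were 17.8% higher and 15.5% lower. The median log2 fold change of the 21 was -0.01. Without siCtrl replicate 2 the counts were 2 higher and 6 lower, and without siCtrl replicate 3 they were 3 and 6. ZYX is counted here with the value given above. ACTN1, an actin crosslinker, rose from 301, 303 and 291 CPM to 354, 356 and 340 CPM (log2 fold change 0.23, standard error 0.03, adjusted p = 0.00228 in edgeR). BCAR1 (p130Cas), a scaffold of adhesion signalling, fell from 25.8, 24.6 and 19.8 CPM to 13.1, 13.3 and 10.3 CPM (log2 fold change -0.93, standard error 0.14, adjusted p = 0.00456 in edgeR).

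Paxillin, encoded by PXN, fell with log2 fold change -0.39 (standard error 0.06, adjusted p = 0.00511 in edgeR), and the fibronectin receptor subunit ITGA5 fell with -0.42 (standard error 0.07, adjusted p = 0.00698), a call lost in the fit with both a replicate block and the GC trend removed (-0.27, adjusted p = 0.119). VASP, which extends actin filaments, had -0.31 (standard error 0.04, adjusted p = 0.00229 in edgeR), and this call was lost with the GC trend removed (adjusted p = 0.0908). ITGB1, the abundant integrin beta subunit, had -0.01 (adjusted p = 0.906). Zyxin and vinculin, both known as SRF targets of adhesions, thus stood apart from each other in these libraries, at log2 fold changes of 0.58 and 0.03, a difference between genes that was not tested.

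Genes with and without a CArG box in the promoter window were compared by direction. Of 165 tested genes with a box, 15.2% were higher and 15.8% lower in edgeR, with a median log2 fold change of 0.00, and of 9950 genes with a window and no box 19.2% were higher and 15.6% lower, with a median of -0.01. This is a description over genes, which are not replicates. Among the 8 of the 10 genes with a window, SRF and CNN2 each have a full box and had log2 fold changes of 0.60 and -0.03. TAGLN and MYL9 had no window. Of the 38 other SRF and MRTF targets with a window 12 had a full box, and of the 9 immediate early genes with a window 2 did.

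Several of the 10 genes are used as markers of smooth muscle or of fibroblasts, so markers of those cells were read in the same libraries. Of 8 smooth muscle markers 5 were under 1 CPM on average, with MYOCD at 0. The transcripts listed for MYH11 and DES, which are among these 5, are retained introns and do not measure those mRNAs, which leaves LMOD1, MYOCD and CASQ2. The sum of the list, nearly all of it ACTG2, was 297.5 to 312 CPM with siCtrl and 315 to 318 CPM in the libraries labelled siTREX1. Of 10 fibroblast markers 4 were under 1 CPM, namely PDGFRA, PDGFRB, DCN and THY1 (at 0, by a listed transcript of 581 nt). The others were above it. Collagens made up most of the sum, with COL1A2 at 1711, COL1A1 at 530.5 and COL3A1 at 229 CPM on average with siCtrl. The sum was 2491 to 2515 CPM with siCtrl and 2348 to 2466 CPM in the libraries labelled siTREX1. Mesenchymal markers summed to 2746 to 2776 CPM and 2773 to 2808 CPM, and only SNAI2 of 7 was under 1 CPM. Neuroendocrine markers, which SCLC cells typically carry, had 5 of 10 under 1 CPM, NEUROD1, CHGA and GRP (at 0) among them. CHGB, SYP, INSM1, DLL3 and SCG2 were above it. Each value is that of 1 listed transcript, so no cell state was read from these markers.

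The neuroendocrine sum was 145 to 149 CPM with siCtrl and 210.45 to 216 CPM in the others. Its rise was that of SCG2, from 96.5 to 172 CPM on average, while DLL3 fell (log2 fold change -0.44, adjusted p = 0.00401 in edgeR), CHGB, SYP and INSM1 did not pass the test, and the median of the 5 tested markers was -0.22. Epithelial markers, with 3 of 6 under 1 CPM, went from 179 to 189 CPM down to 131 to 145 CPM. Of the 3 low ones only KRT19, at 0, has a coding transcript listed, since those of CDH1 and EPCAM are a retained intron and a nonsense-mediated decay form. Immune cell markers, 3 of 5 of them under 1 CPM, were at 7.20 to 12.8 CPM and 9.23 to 13.7 CPM. The part of these changes in the levels of SRF, TAGLN and TPM1 was not tested. In bulk RNA a change in the share of cells of a kind and a change of RNA per cell cannot be told apart.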

How the data were processed

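RNA-seq libraries of H69AR cells on day 3 after transfection, 3 with siCtrl and 3 with siTREX1 (#1), were made with a kit that keeps strand and read from both ends. The values that the authors deposited are estimated counts from kallisto, turned by tximport (scaledTPM) into values free of transcript length, with 1 transcript listed for each symbol. FastQC and hg19 are named in the submitters' processing notes. The version of kallisto and its annotation were not given in the sources used here. Since 1 transcript stands for a gene, a shift between isoforms can look like a change of the gene.

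These counts were rounded to whole numbers. The test was edgeR's (4.0.16, R 4.3.3), with TMM factors (robust quasi-likelihood test, filterByExpr with a minimum count of 10, Benjamini-Hochberg adjustment over 13221 genes, threshold 0.05). Standard errors are the log2 fold change divided by the square root of F. CPM are counts scaled to the library total over the genes past the filter, multiplied by the TMM factor. A line without a symbol (0.0925% to 0.109% of counts) was left out. No libraries held identical values (chi-square per degree of freedom 6.43 to 9.23 within groups). Alternatives were DESeq2-type (RLE) factors, scaling by library size only, no filter on low counts, a filter of 10 counts in every library, DESeq2 1.42.0, voom in limma 3.58.1, the replicate number as a block, a loess trend of GC content (span 0.5) removed, both together, and leaving out each library. The test was checked on simulated counts.

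Annotation was GENCODE 29 on GRCh38, where 99.2% of listed transcripts were found by identifier, and promoter windows were RefSeq's on GRCh38.p14. No coordinates were converted. Named genes were the 10 genes, TREX1, the SRF partners, up to 6 genes of each other list with the lowest p and up to 3 with the highest level, and the 5 profiles nearest to TAGLN and to SRF. The members and lists were chosen with earlier results of these data known. One gene list and 2 marker genes chosen with the others are not reported here.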

Additional observations from a re-analysis of the deposited data

How the results depend on the processing

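Over the 6 fits that each left out 1 library, all 54 log2 fold changes of the 9 measurable genes moved by less than the spread between replicates, and under the other settings 72 of 81 did. The 9 that moved were in SRF, TAGLN, MYL9 and CNN2. Removal of the GC trend raised SRF to 0.81 and TAGLN to 1.17 on the log2 scale and left TPM1 at 0.77. The listed transcripts of SRF, TAGLN, MYL9, CNN1 and CNN2 have GC contents of 58.8% to 60.9%, against 48.1% for TPM1 and a median of 49.9% over tested genes. It also changed the split of all called genes from 2349 higher and 2049 lower to 2848 and 1623. The size of the SRF and TAGLN differences therefore depends on this choice, and whether the trend is technical was not tested.

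The replicate numbers did not pair the libraries, with correlations of same-numbered libraries of 0.018, 0.026 and 0.024, although each library correlated best with its own number. With the replicate number as a block 3419 genes were called in place of 4398, and HOPX (adjusted p = 0.0644 in edgeR), DAPK3 (0.0698) and MYH10 (0.0566) lost their calls. The log2 fold changes in that fit were 0.60 for SRF, 1.01 for TAGLN and 0.77 for TPM1.

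The count of called genes on the myosin II list, 2 as reported, was 4 with library sizes alone, 7 in DESeq2, 4 in limma-voom, 0 with the replicate block, 5 with the GC trend removed, 4 with both, and 0 to 2 over the left-out libraries. PPP1R14B turned from -0.11 to 0.27 with the GC trend removed, with or without the replicate block. Estimated counts of 1 transcript per gene limit all of these values, and ACTA2, with at most 14 counts in a library, was too low for a comparison.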
